A study of Mus musculus with 2 samples.

Results

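Potassium channel genes were examined in cultured dentate gyrus (DG) astrocytes of wild-type (WT) and β-arrestin1 knockout (β-arr1 KO) mice. The members were every gene whose symbol starts with Kcn in the deposited expression tables, joined by symbol, which gave 75 of 16302 genes. They were grouped by symbol into 12 inward rectifiers (Kcnj), 10 tandem-pore channels (Kcnk), 30 voltage-gated pore-forming subunits, 7 calcium-activated subunits, 11 accessory subunits and 5 others. Both genotypes carried the C57BL/6 strain label. The KO mice lacked β-arr1, a scaffold of G protein-coupled receptor signalling, in all tissues, and the controls were WT. Cells of the adult DG were grown in serum-containing astrocyte medium and shaken to remove loosely attached cells before RNA was taken with Trizol. Each genotype was 1 pooled, PCR-amplified cDNA library without replicates, so no error between cultures and no test between genotypes can be given.

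Potassium channels let potassium leave or enter a cell down its electrochemical gradient and set its resting potential. Astrocytes rest near the potassium equilibrium potential and take up the potassium that active neurons release, mainly through inward rectifiers, with tandem-pore channels carrying a leak current. Voltage-gated and calcium-activated channels open on depolarisation or a rise in calcium and are best known from neurons and muscle, while accessory subunits bind the pore-forming ones and change their gating or trafficking.

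The pore of these channels is lined by a short selectivity filter, and its coding sequence is shown for members the results turn on because it is the part that pore-forming potassium channel subunits share. The stretch searched was 5 codons in the reading frame of the coding strand: ACN, TCN, AGT or AGC, then any codon NNN, then GGN, then TAC, TAT, TTC or TTT, then GGN. Each line gives 27 bases of the coding strand, 5′ to 3′, from the NCBIM37 (mm9) annotation, with the 5 filter codons in capitals between 6 bases on either side.
Kcnj10: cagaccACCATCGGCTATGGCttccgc
Kcnj2: cagacaACCATTGGCTATGGTttcagg
Kcnk2, first copy: atcacaACCATAGGATTTGGAaacatc
Kcnk2, second copy: ctgacgACCATTGGATTTGGAgactac
Kcnk10, first copy: atcacaACCATAGGGTATGGGaatatt
Kcnk10, second copy: ctgaccACAGTAGGCTTTGGTgatttt
Kcnd3: atgactACACTGGGATATGGAgacatg
Kcnc2: atgactACCTTAGGTTACGGGgatatg
Kcnq3: ctggccACCATTGGTTATGGAgacaag
Kcnma1: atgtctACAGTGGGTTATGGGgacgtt
Kcnt2: ttttctACTGTGGGCTTTGGGgatgtc
The Kcnj10 stretch lay in a coding exon at chr1:174299427-174299453 on the plus strand, that of Kcnc2 at chr10:111893279-111893305 on the plus strand, and that of Kcnma1 at chr14:24347629-24347655 on the minus strand. The first copies of Kcnk2 and Kcnk10 and the stretch of Kcnd3 were split over 2 exons.

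Of the 75 members, 74 matched an annotated coding sequence. All 12 inward rectifiers and all 30 voltage-gated subunits held 1 match. Among the tandem-pore channels, whose subunits carry a pair of pore loops, 8 of 10 held 2 matches, and Kcnk1 and Kcnk6 held 1. Calcium-activated members held 1 match in 5 of 7, the exceptions being the beta subunits Kcnmb1 and Kcnmb4. None of the 11 accessory subunits held one. Over all protein-coding genes of the annotation, 563 of 22594 (2.49%) held at least 1 match, so these letters alone do not mark a channel.

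Levels are FPKM, fragments scaled to transcript length and to the mapped fragments of the library, a unit in which genes can be compared within a library. Library depth, in mapped fragments estimated from the steps between low FPKM values, came to 9.38 M (mega) for WT with 9.52 M for the β-arr1 KO library. The 95% intervals below are exact binomial (Clopper-Pearson) intervals on fragments estimated from FPKM, transcript length and this depth, and they cover counting error only. Arrb1, the targeted gene, was at 7.62 FPKM in WT and 2.72 in β-arr1 KO, a ratio of 0.358 (0.300 to 0.425). The astrocyte marker Gfap was at 189 vs. 192 FPKM (WT vs. β-arr1 KO), while Gjb6 was not listed in WT and was at 0.0526 in β-arr1 KO, and markers of other cells were also present. Summed FPKM was 383 vs. 405 for 10 astrocyte markers, 107 vs. 153 for 10 of the oligodendrocyte lineage, 427 vs. 341 for 8 of microglia, 63.7 vs. 52.0 for 8 of endothelium and 5748 vs. 5409 for the 9 listed of 10 of pericytes and smooth muscle. It was 3101 vs. 2022 for 8 fibroblast markers, 83.0 vs. 106 for the 10 listed of 12 neuronal markers and 6.76 vs. 79.4 for 9 skeletal muscle markers. The endothelial sum was lower in β-arr1 KO, but the median log2 ratio of the 7 endothelial markers at 1 FPKM in either library was 0.52. Of these 7, 2 had a ratio above 3/2 and 1 below 2/3, against 7.9% and 6.74% of all genes listed in both libraries. Of the neuronal genes, Rbfox3, Snap25 and Syt1 were each at or below 0.261 FPKM in both libraries, while Tubb3 was at 44.7 vs. 59.8, Stmn2 at 36.6 vs. 43.4 and Prox1 at 1.05 vs. 2.17. The myosin gene Myh8 was not listed in WT and was at 23.4 in β-arr1 KO. In such a mixture, fewer cells of a type and less RNA per cell cannot be told apart, and the part of these other cells in the results below was not tested except where a value is given.

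Potassium channel message was sparse in both cultures. Of the 75 genes, 69 were listed in WT, 70 in β-arr1 KO and 64 in both, and 32 reached 1 FPKM in one library or both. Together they made up 0.0250% of the summed FPKM in WT and 0.0323% in β-arr1 KO. Kcnj10, which encodes Kir4.1, the main inward rectifier of astrocytes, had the highest level of any member in each library. In WT it was followed by Kcnk2 and Kcnd3, and in β-arr1 KO by Kcnd3 and Kcnk2.

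**Figure D1:**
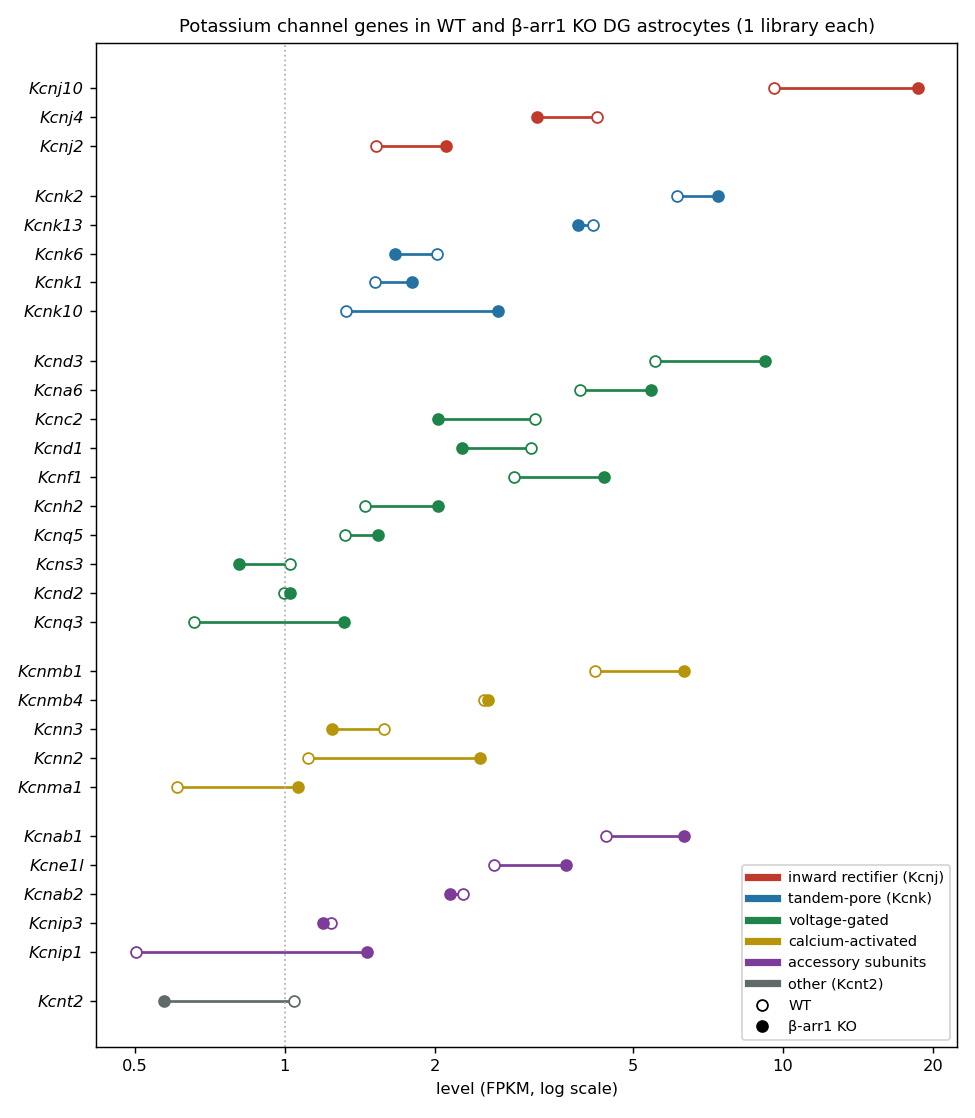
Level of 29 of the 32 potassium channel genes that reached 1 FPKM in either library, on a log FPKM axis, with open circles for WT, filled circles for β-arr1 KO and colours for the groups, 1 library per genotype. Kcnj10 was the highest member in both libraries, at 9.60 FPKM in WT and 18.7 in β-arr1 KO.

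More members were higher in β-arr1 KO than lower. Using the limits of the study, a ratio above 3/2 or below 2/3 of β-arr1 KO to WT FPKM, 12 of the 32 genes at 1 FPKM differed, against 17.8% of all 12646 genes at that level and 14.6% of those listed in both tables. Of these, 10 were higher in β-arr1 KO, against 7.9% of the 12171 such genes listed in both tables, and 2 were lower, against 6.74%. Among the 10 were Kcnj10, Kcnk10, Kcnd3, Kcnf1, Kcnq3, Kcnma1, Kcnmb1, Kcnn2 and Kcnip1, and the 2 were Kcnc2 and Kcnt2. In each of the 12 the counting interval left out a ratio of 1. Over the 32 genes the interval lay above 1 in 13 and below 1 in 4, where it did so in 22.2% and 18.3% of all genes. The median log2 ratio was 0.26 over the 32 genes and 0.02 over all genes, and 21 of the 32 were above 1, against 53.1% of all genes. Without any minimum, 41 of the 64 members listed in both libraries were higher, against 51.8% of all genes. The share of 17.8% counts genes listed in 1 table only, which always pass a limit. With its own set of genes the study reported a smaller changed share at these limits.

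Low levels and the minimum itself bore on these counts. All but 1 of the 32 members had a higher value between 1 and 10 FPKM, and among all genes in that range 11.7% were above 3/2 and 9.87% below 2/3, against 9 and 2 of the 31 members. In that range 9.85% of all genes were above 3/2 with an interval above 1, as the 9 members were. In all, 6 members reached 1 FPKM in β-arr1 KO only, and 4 of them were among the 10, while Kcns3 and Kcnt2 reached it in WT only. Of the 24 at 1 FPKM or more in both libraries, 6 were above 3/2 and 1 below 2/3, where 6.45% and 5.35% of all genes were. With a pseudocount of 1 FPKM 5 of the 32 members were past a limit, against 13.0% of all genes, and with limits of 2 and 1/2 there were 4, against 9.20%. Rescaling the libraries or adding a pseudocount left Kcnj10, Kcnd3, Kcnk10, Kcnn2 and Kcnip1 past the limit under all 6 alternatives. Kcnf1 and Kcnmb1, whose ratios lay just above 3/2, were below it once the libraries were rescaled to a median ratio of 1 or to the same upper quartile.

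**Figure D2:**
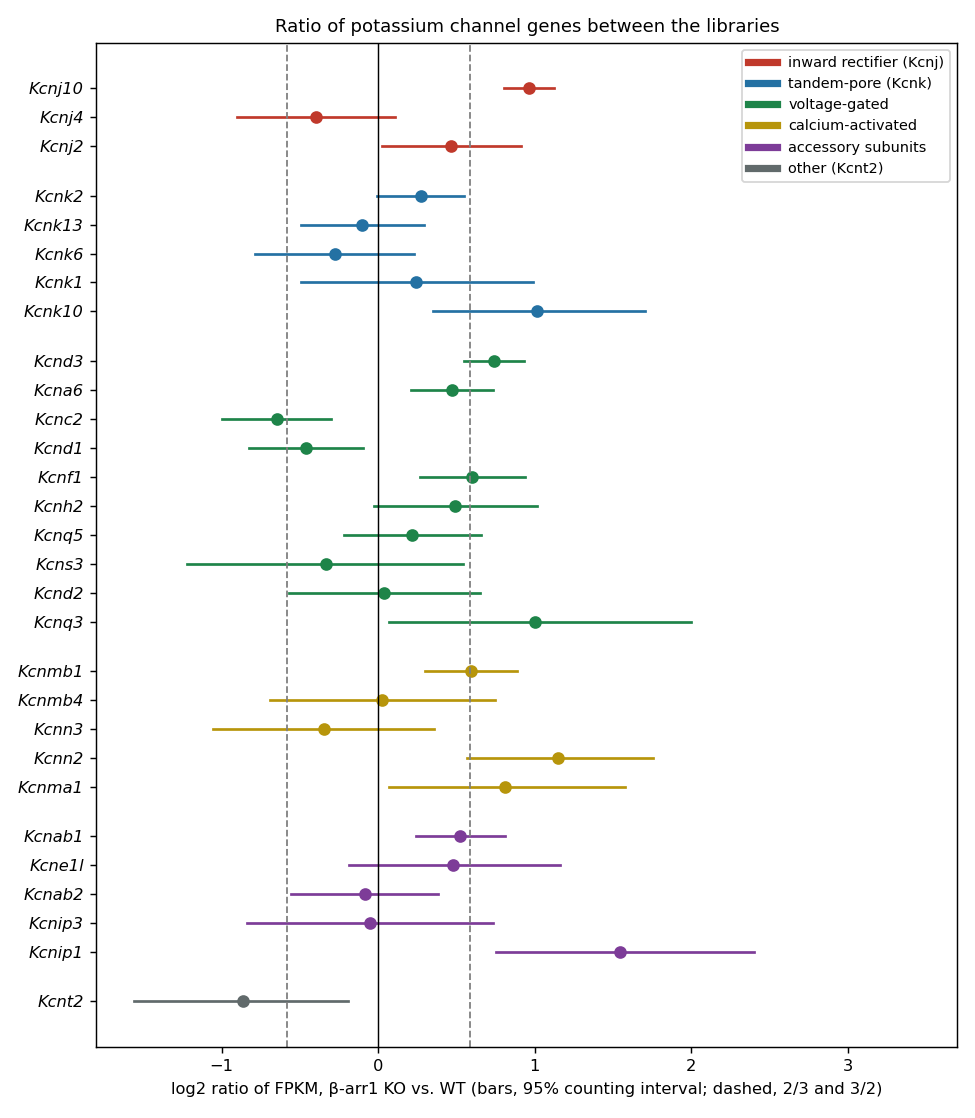
The log2 ratio of FPKM, β-arr1 KO vs. WT, for 29 of the 32 genes that reached 1 FPKM in either library, with bars for the 95% counting interval and dashed lines at ratios of 2/3 and 3/2. Kcnip1, Kcnn2, Kcnk10 and Kcnq3 had the highest ratios, and the narrowest interval was that of Kcnj10, the member with the most fragments.

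Among the inward rectifiers, 1 gene of the 3 at the minimum passed a limit, against 14.6% of all genes listed in both tables. Kcnj10 was at 9.60 FPKM in WT and 18.7 in β-arr1 KO, from an estimated 470 and 938 fragments, a ratio of 1.95 (1.74 to 2.18). Its share of the group's summed FPKM was 55.7% in WT and 72.3% in β-arr1 KO. With Kcnj10 the group's sum was 17.2 vs. 25.8 FPKM, and without it 7.63 vs. 7.15, a ratio of 0.937. The Kir2 subunits, strong rectifiers that hold the resting potential of many cells, went either way. Kcnj2 was at 1.53 vs. 2.11 FPKM, a ratio of 1.38 (1.02 to 1.88), and Kcnj4 at 4.23 vs. 3.21, a ratio of 0.759 (0.534 to 1.08), so the interval of Kcnj4 took in 1. The level of Kcnj10 was 2.27 times that of Kcnj4 in WT and 5.82 times in β-arr1 KO. Kcnj16, which encodes the Kir5.1 partner of Kir4.1, stayed below the minimum at 0.273 vs. 0.561 FPKM, a ratio of 2.05 whose interval of 0.886 to 5.16 took in 1. Kcnj10 exceeded it 35.1 times in WT and 33.3 times in β-arr1 KO. Of the 11 inward rectifiers listed in both tables, 5 were higher in β-arr1 KO, and their median log2 ratio was -0.04.

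The tandem-pore channels carry background potassium currents. Kcnk2 and Kcnk10 encode the mechanosensitive channels TREK-1 and TREK-2, and Kcnk13 encodes the halothane-inhibited THIK-1, which is well known from microglia. Of the 5 at the minimum Kcnk10 alone was past a limit, where 21.5% of all genes from 1 to 10 FPKM were. Kcnk10 was at 1.33 FPKM in WT and 2.68 in β-arr1 KO, a ratio of 2.02 (1.28 to 3.25) from 29 and 61 estimated fragments. Kcnk2 was at 6.13 vs. 7.40 FPKM, a ratio of 1.21 (0.995 to 1.46), and remained the highest of the group. Kcnk13 was at 4.16 vs. 3.88 FPKM, beside 8 microglial markers of which 7 lay between the limits. The other one, Cd68, was at 185 vs. 119 FPKM and made up most of the difference between their sums. The weakly conducting Kcnk1 was at 1.52 vs. 1.80 FPKM and Kcnk6 at 2.02 vs. 1.67. The group's sum was 16.1 vs. 18.8 FPKM, and its share of all potassium channel FPKM was 17.1% vs. 15.6%.

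**Figure D3:**
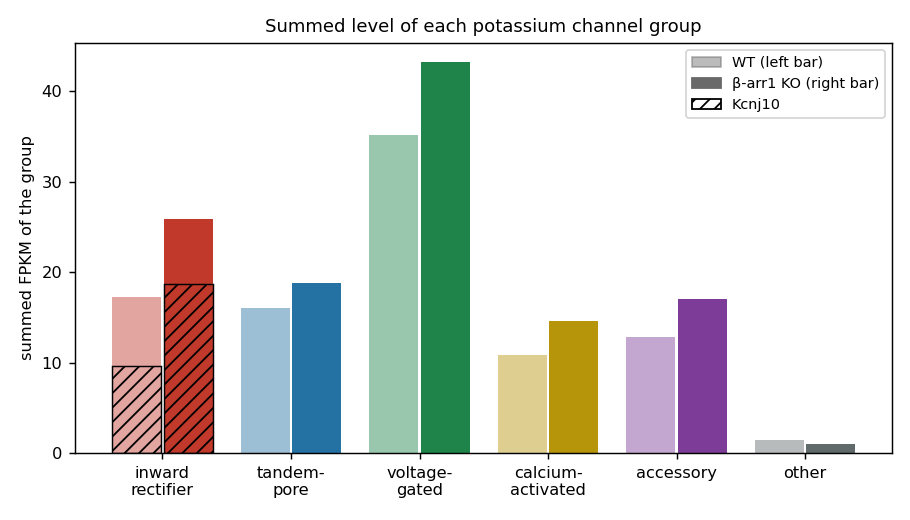
Summed FPKM of each group of potassium channel genes in WT (left bar) and β-arr1 KO (right bar), 1 library per genotype, with the part of Kcnj10 hatched. The inward rectifiers went from 17.2 FPKM in WT to 25.8 in β-arr1 KO, of which Kcnj10 made up 9.60 and 18.7, and the voltage-gated group, the highest, from 35.1 to 43.2 FPKM.

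Voltage-gated subunits formed the largest group by number and by summed level, 35.1 FPKM in WT and 43.2 in β-arr1 KO. Of 30 members 13 reached the minimum. Of these, 4 were above 3/2 and 1 below 2/3, against 11.7% and 9.87% of all genes from 1 to 10 FPKM. Kcnd3 encodes Kv4.3, which carries a fast inactivating A-type current. It was at 5.53 FPKM in WT and 9.22 in β-arr1 KO, a ratio of 1.67 (1.46 to 1.90) from 362 and 617 estimated fragments, and the tables gave its locus starts 119 bases apart. The other Kv4 genes did not share this ratio: Kcnd1 was at 3.13 vs. 2.27 FPKM, 0.727 (0.563 to 0.935), and Kcnd2 at 0.998 vs. 1.03.

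Of the Kcnq genes, whose channels are known for the slow M-type current, Kcnq3 was at 0.658 vs. 1.32 FPKM, a ratio of 2.003 (1.05 to 3.99), and was below the minimum in WT. Kcnq5 was at 1.32 vs. 1.54 FPKM. Kcnf1, an electrically silent subunit that modifies Kv2 channels, was at 2.88 vs. 4.37 FPKM, a ratio of 1.52 (1.21 to 1.92).

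Of the Kcnc genes, which encode the fast Kv3 channels, Kcnc2 was lower in β-arr1 KO, at 3.18 vs. 2.03 FPKM, a ratio of 0.638 (0.501 to 0.810), with different locus starts in the tables. Kcnc1 and Kcnc4, below the minimum, had ratios in the opposite direction, 3.19 (1.58 to 6.96) at 0.151 vs. 0.482 FPKM and 3.23 (1.42 to 8.26) at 0.295 vs. 0.953 FPKM. These came from 11 and 35 estimated fragments for Kcnc1 and from 8 and 26 for Kcnc4. Of the remaining voltage-gated genes, Kcna6, a delayed rectifier of the Kv1 family, was at 3.92 vs. 5.43 FPKM, a ratio of 1.39 (1.16 to 1.67). Kcnh2, the ERG channel, was at 1.45 vs. 2.03, a ratio of 1.404 (0.983 to 2.02), and the silent subunit Kcns3 at 1.02 vs. 0.812.

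**Figure D4:**
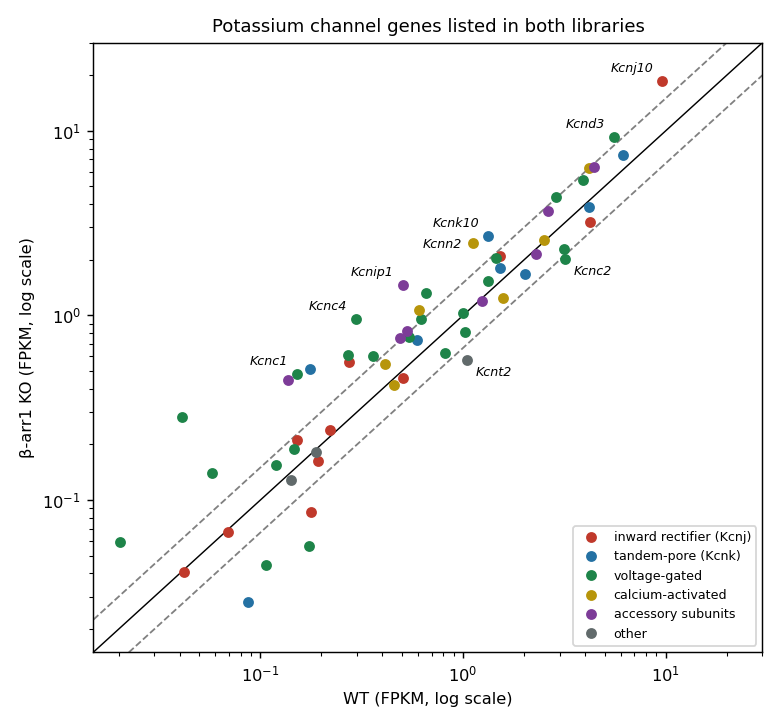
FPKM in β-arr1 KO against FPKM in WT on log axes for 61 of the 64 potassium channel genes listed in both tables, coloured by group, with a line of equality and dashed lines at ratios of 2/3 and 3/2, 1 library per genotype. Kcnj10 lay above the upper dashed line at the top of the range, and the members below 1 FPKM lay farther from the line of equality in both directions.

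Of the calcium-activated subunits 5 reached the minimum. Of these, 3 were above 3/2 and none below 2/3, against 11.7% and 9.87% of all genes from 1 to 10 FPKM. The median log2 ratio of these 5 subunits was 0.59. Over those of them at 1 FPKM or more in both libraries it was 0.31. At that minimum the median of the inward rectifiers was 0.46 and that of the voltage-gated group 0.34. Kcnn2, the small-conductance channel SK2, was at 1.11 FPKM in WT and 2.47 in β-arr1 KO, a ratio of 2.21 (1.48 to 3.37) from 36 and 83 estimated fragments, with different locus starts in the tables. Kcnn3, its SK3 relative, was at 1.58 vs. 1.25 FPKM. The pore-forming subunit of the large-conductance BK channel, Kcnma1, was at 0.609 vs. 1.07 FPKM, a ratio of 1.75 (1.05 to 2.98). Its partner Kcnmb1, the beta subunit best known from smooth muscle, was at 4.20 vs. 6.32 FPKM, a ratio of 1.51 (1.23 to 1.85). Beside it, the 9 listed pericyte and smooth muscle markers summed to 5748 vs. 5409 FPKM and differed among themselves. Of the 8 of these markers at the minimum, none was above 3/2, 1 was below 2/3 and 7 lay between. The median log2 ratio of these 8 was -0.18. Acta2 and Tagln, the highest, were at 2478 vs. 2469 and 2915 vs. 2597 FPKM. Myh11 and Des were at 40.4 vs. 56.6 FPKM, a ratio of 1.402 (1.33 to 1.48), and at 29.7 vs. 41.9 FPKM, a ratio of 1.41 (1.29 to 1.55). The part of smooth muscle cells in the Kcnmb1 ratio was not tested. Kcnmb4, the beta subunit best known from brain, was at 2.51 vs. 2.56 FPKM. The level of Kcnmb1 was thus 6.90 times that of the pore-forming gene in WT and 5.93 times in β-arr1 KO.

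Of the accessory subunits, Kcnip1 encodes a calcium-binding protein that attaches to Kv4 channels. It had the highest ratio of the 32 genes, 2.92 (1.69 to 5.28), at 0.502 FPKM in WT and 1.47 in β-arr1 KO, from 18 and 55 estimated fragments. With a pseudocount of 1 FPKM that ratio was 1.64, below the 1.86 of Kcnj10. Kcnip3, of the same family, was at 1.24 vs. 1.19 FPKM, and Dpp6, another Kv4 partner outside the Kcn symbols, lay between the limits. Kcnab1, a beta subunit of Kv1 channels, was at 4.41 vs. 6.33 FPKM, a ratio of 1.44 (1.18 to 1.75), while Kcnab2 was at 2.28 vs. 2.15. Kcne1l, a single-pass subunit, was at 2.63 vs. 3.67 FPKM. In the last group Kcnt2, a sodium-activated channel, was at 1.04 FPKM in WT and 0.572 in β-arr1 KO, a ratio of 0.549 (0.339 to 0.873), the lowest of the 32, and its locus bounds also differed between the tables. Of the 22 members at the minimum whose bounds were equal, 0 were below 2/3 and 8 above 3/2. Of all such genes 7.51% were above 3/2 and 13.8% past either limit.

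The other 43 members stayed below 1 FPKM in both libraries, between 0.0204 and 0.953 FPKM where listed. Of the 32 among them listed in both tables, 20 were higher and 12 lower in β-arr1 KO. The interval lay above 1 in Kcna1, Kcnc1, Kcnc4 and Kcnh5 and below 1 in none. The matching shares over all genes below 1 FPKM were not computed. Among all genes listed in both tables, 51.8% were higher in β-arr1 KO with no minimum and 53.1% at the minimum. Another 11 of the 43 members were listed in 1 table only, 5 in WT (Kcne2, Kcnip2, Kcnj14, Kcnk18 and Kcnrg) and 6 in β-arr1 KO (Kcna7, Kcne3, Kcnh4, Kcnh8, Kcnk4 and Kcnt1). Kcnip2 at 0.426 FPKM, about 12 fragments, was the highest of these in WT, and 3 fragments would have given 0.106 FPKM in β-arr1 KO. No ratio is given for genes listed once.

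Several members lay beside each other in the genome. Kcnj9 and Kcnj10 were 11.9 kb apart on chromosome 1, and Kcnj9 was at 0.507 vs. 0.460 FPKM, a log2 ratio of -0.14 against 0.96 for Kcnj10. Kcnj2 and Kcnj16, 38.2 kb apart on chromosome 11, had log2 ratios of 0.46 and 1.04. Kcnmb1, on the plus strand at chr11:33863013-33873638, lay within the bounds of Kcnip1, on the minus strand at chr11:33529341-33893193. Both were above 3/2, and since no strand setting was given for the libraries, reads where these genes overlap cannot be told apart.

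Genes that work beside these channels in potassium uptake were read from 4 lists. Of 9 buffering and endfoot genes at the minimum, 4 were above 3/2 and none below 2/3, where 7.9% and 6.74% of all genes were. Aqp4, the water channel that shares astrocyte endfeet with Kir4.1, was at 7.05 FPKM in WT and 13.5 in β-arr1 KO, a ratio of 1.92 (1.67 to 2.20). Dmd, whose dystrophin products anchor that complex and which muscle also expresses, was at 12.2 vs. 25.1 FPKM, a ratio of 2.05 (1.94 to 2.18). Dtna, its dystrobrevin partner, had a ratio of 1.68 and the glutamate transporter Slc1a2 one of 1.58. Other genes of the list did not share this: Dag1, the dystroglycan that was highest in it, was at 107 vs. 103 FPKM, and the gap junction gene Gja1 at 34.0 vs. 29.4, a ratio of 0.862.

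The sodium pump, which clears potassium beside the channels, differed by subunit. Of 10 genes at the minimum, 4 were above 3/2 and 1 below 2/3, against the same 7.9% and 6.74% of all genes. The glial beta subunit Atp1b2 was at 70.2 vs. 113 FPKM, a ratio of 1.61 (1.53 to 1.70). The regulatory subunit Fxyd6 was at 4.60 vs. 8.99 FPKM, whereas the intervals of Fxyd1 (0.990 to 2.39) and Fxyd2 (0.356 to 1.01) took in 1. Of 4 cation-chloride cotransporters at the minimum, none was above 3/2, and none of 4 channel partners passed either limit.

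**Figure D5:**
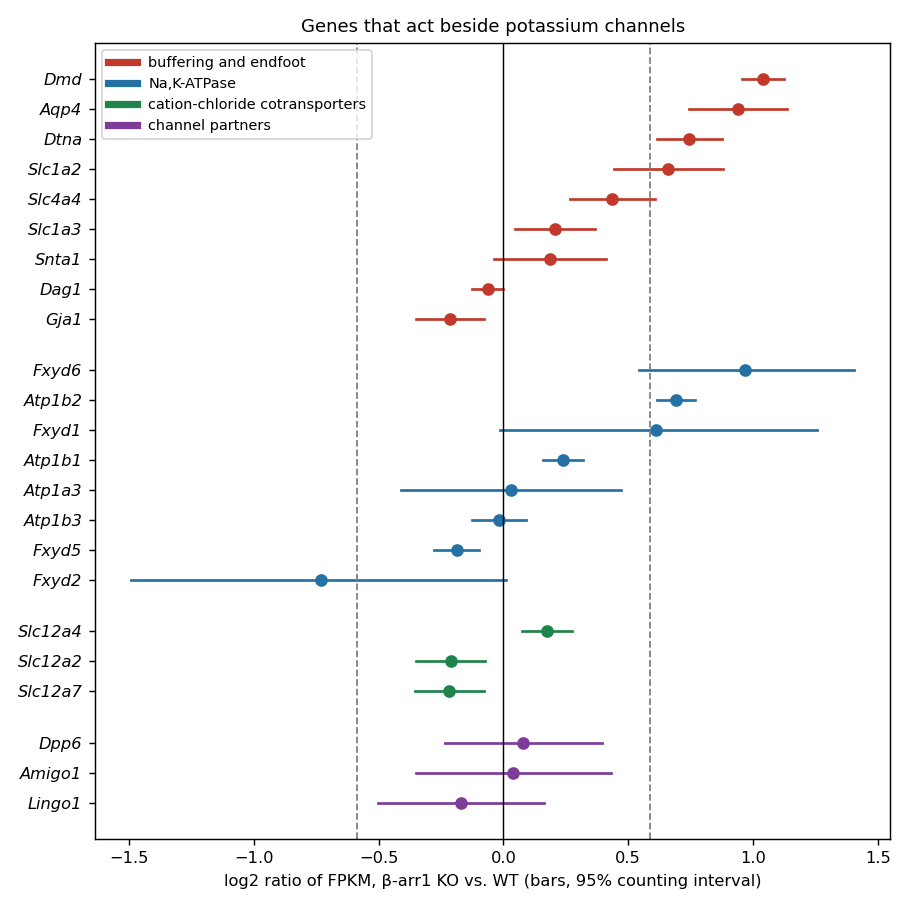
The log2 ratio of FPKM, β-arr1 KO vs. WT, for 23 genes of 4 lists that act beside potassium channels, with bars for the 95% counting interval. All of them reached 1 FPKM in either library, and some other genes of the lists that did so are not drawn. Of the 23 genes drawn, Dmd (2.05), Aqp4 (1.92) and Atp1b2 (1.61) were among those above the dashed line at 3/2.

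Markers of astrocytes and of other cells also differed between the libraries. Of the 9 astrocyte markers at the minimum, 4 were above 3/2 and none below 2/3, where 7.9% and 6.74% of all genes were. Among the 4 were Aqp4 and Slc1a2, which the buffering list also held, so these lists overlap. The sum of the astrocyte markers was 383 vs. 405 FPKM. Gfap, the highest, was at 189 vs. 192, and Glul, the next, at 83.3 vs. 61.8, a ratio of 0.742 (0.694 to 0.793). Of the oligodendrocyte lineage markers, a lineage that also uses Kir4.1, 4 of the 8 at the minimum were above 3/2, against 7.9% of all genes. These were Olig1 at 32.6 vs. 56.0 FPKM, Olig2 at 6.19 vs. 13.1, Pdgfra at 3.12 vs. 6.03 and Sox10 at 0.907 vs. 1.82. All 6 skeletal muscle markers at the minimum were above 3/2, against 9.56% of all genes, both counting genes listed in β-arr1 KO only. Myog was at 0.160 vs. 4.12 FPKM and Acta1 at 5.95 vs. 28.4. The part of these cells in the ratios of Kcnj10, Kcnn2 and Dmd was not tested.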

How the data were processed

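RNA of cultured DG astrocytes was sequenced as 1 library per genotype (2 in all), described as pooled cDNA. Per the labels and methods, the authors aligned paired reads to mm9 with TopHat 1.4.0 and deposited FPKM per gene from Cufflinks, a unit scaled by transcript length and library depth, with no counts. The Cufflinks version and settings are not given in the sources used here. The tables list values above 0 alone, so a gene with no row was taken as 0 in counts and sums and given no ratio. Where a symbol had several rows, the highest was kept.

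Ratios (β-arr1 KO/WT) were taken on the deposited FPKM without a pseudocount, with limits of 3/2 and 2/3, among genes at 1 FPKM or more in at least one library. The depth behind a value was estimated from low FPKM values, which lie on whole-read steps (69.8% and 69.5% of the low genes within 5%). Fragments were computed from the longest GENCODE transcript of each gene, and such estimates err where another isoform was expressed. Locus starts are printed after adding 1, which made 38.4% and 38.7% of them equal the annotated start. Scripts used Python 3.11.15, pandas 2.3.3 and scipy 1.17.1 and were tested on simulated data. Some genes and 1 sequence are not reported here by name, though counts and sums include every member. The members, gene lists, limits and alternatives were chosen with earlier results of these data known. No protein sequences were used here.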

Additional observations from a re-analysis of the deposited data

How the results depend on the processing

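With 1 library per genotype no library can be left out, and counting intervals do not cover differences between cultures. No paired analysis was possible because each genotype has 1 library and the labels give no replicate numbers. The 12 of 32 members past a limit (10 higher, 2 lower), against 17.8% of all genes, became 35 of 68 (26 and 9; all genes 26.01%) with a minimum of 0.1 FPKM and 20 of 45 (18 higher; all genes 20.2%) with 0.5. They were 3 of 7 (3 and 0; all genes 12.5%) with a minimum of 5 and 7 of 24 (6 and 1; all genes 11.8%) with 1 FPKM in both libraries. Of the 32, 5 were past a limit (5 and 0; all genes 13.0%) with a pseudocount of 1 and 4 (4 and 0; all genes 9.20%) with limits of 2 and 1/2, which leaves a smaller excess over all genes. Members below 2/3 numbered 0 of the 22 at the minimum with the same locus bounds in both tables (8 past a limit; all genes 13.8%). They numbered 1 of the 27 with a mean of at least 1 FPKM (8 past a limit; all genes 13.5%). The median log2 ratio of 0.26 was 0.39, 0.47 and 0.52 with a minimum of 0.1, 0.5 and 5 FPKM, 0.47 with the same locus bounds and 0.37 with no minimum. With no minimum the inward rectifier median of 0.46 turned to -0.0401, the calcium-activated one went from 0.59 to 0.41 and the voltage-gated one from 0.24 to 0.49. With the same locus bounds the last 2 were 0.31 and 0.48, so the order of the group medians depends on the minimum and the bounds. The settings by mean and with no minimum were added once the data had been seen. Of the partner genes, 10 past a limit became 1 with limits of 2 and 1/2. Of the 12 members, 7 fell short of the limit under at least 1 of 6 alternatives, all with a pseudocount of 1, and no other member entered. Shallow depth limits the members below 1 FPKM most.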
